A study of Saccharomyces cerevisiae with 4 samples.

Results

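The 10 genes described here encode proteins that bring iron into the yeast cell and its mitochondria, together with the activator that controls many of them. They are *FET3*, *FTR1* and *FRE1* of high affinity uptake, *FET4* of low affinity uptake, *FIT2*, *FIT3* and *ARN1* of siderophore uptake, the regulator gene *AFT1*, and the mitochondrial carrier genes *MRS3* and *MRS4*. They were taken by gene symbol from a fixed list of names, and all 10 were found among the 5449 genes of the array. Each was read by 1 probe set, the group of oligonucleotides that measures a transcript, and no name of these probe sets marked it as shared with another gene.

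The data are 4 Affymetrix Yeast Genome 2.0 arrays, each hybridized with total RNA from 1 exponential culture of *S. cerevisiae* W303-1A. This haploid strain has mating type a and carries mutant alleles of *ADE2*, *CAN1*, *HIS3*, *LEU2*, *TRP1* and *URA3* in every group. Cells grew in minimal medium with 2% glucose and no uracil. Doxycycline was left out, which keeps the tet promoter active. WT is 1 array, from cells that held the plasmid pCM189 with no insert. The RECQL5 group is 3 arrays of cells with pCM189::RECQL5-FLAG, which expresses the human DNA helicase RECQL5 from the tet promoter (RECQL5 1, 2 and 3). For its tet constructs the paper gives another vector than these labels. The human transcript was not analysed here, so expression of RECQL5 was not checked.

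Yeast cells take up iron in several ways. In the high affinity route a reductase at the cell surface converts ferric to ferrous iron, and a complex of the oxidase Fet3 and the permease Ftr1 carries it inward. Siderophores, iron chelators released by other microbes, are held in the cell wall by mannoproteins such as Fit2 and Fit3 and enter through transporters of the Arn family. When iron is scarce, Aft1 enters the nucleus and activates genes of both routes, and it also activates *MRS4*. Mrs3 and Mrs4 are related carriers of the inner mitochondrial membrane that supply iron for iron-sulfur cluster and heme synthesis.

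Values are log2 levels after RMA (robust microarray average), so a difference of 1 is a doubling. The comparison asks how expression of RECQL5 altered the levels of these transcripts. RECQL5 was compared with WT by limma over the 4128 genes whose mean over the 4 arrays reached log2(600), or 9.23. Genes rose or fell when the Benjamini-Hochberg adjusted p was at most 0.1 and the change at least 1.5-fold (0.58 on the log2 scale). Over all tested genes 9.59% rose and 7.8% fell (17.4% in all), and the median change was 0.02. WT has 1 array, so its own spread is unknown and is assumed to be that of the RECQL5 arrays. An exact permutation of 1 array against 3 cannot give a p below 0.25. All 7 markers of mating type a were read, at 7.68 to 13.68. The highest of 4 markers of mating type alpha read 9.42, and 5 sporulation markers read 6.39 to 9.90. The 95th percentile of probe sets for genes of other species was at most 4.35 on any array, and the lowest value of an iron gene was 7.73. Per the study, however, 600 is the median value of meiotic genes that are not expressed. Genes under the filter thus read in the range of silent genes. Because 600 is a median, silent genes also read above it, and *SPO11*, a sporulation marker, read 9.90 in WT. The 5 sporulation markers themselves differed from WT by -1.37 to 0.88. Rises and falls under the filter, or not far above it, thus need caution. *AFT1* (9.09 to 9.55) and the RECQL5 values of *MRS4* (9.39 to 9.51) are among these low readings.

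*FET3* of high affinity uptake was higher in RECQL5 cells and *MRS4* was lower. Among the 7 iron genes that were tested, 1 rose (*FET3*, 1.95-fold) and 1 fell (*MRS4*, WT 1.70-fold the RECQL5 level), beside 9.59% and 7.8% of all tested genes. The other 5 tested genes differed by 0.08 to 0.53. *FRE1*, *FIT2* and *ARN1* had means below the level filter and were tested only without it, where 10.3% of 5449 genes rose and 8.59% fell (18.9% in all). There, *FRE1* rose, *FIT2* fell and *ARN1* did neither. All 3 RECQL5 arrays lay above WT for 7 of the 10 genes and below it for 2 (*FIT2* and *MRS4*), while for all genes these shares were 45.5% and 39.7% (45.5% and 40.6% over tested genes).

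**Figure D1:**
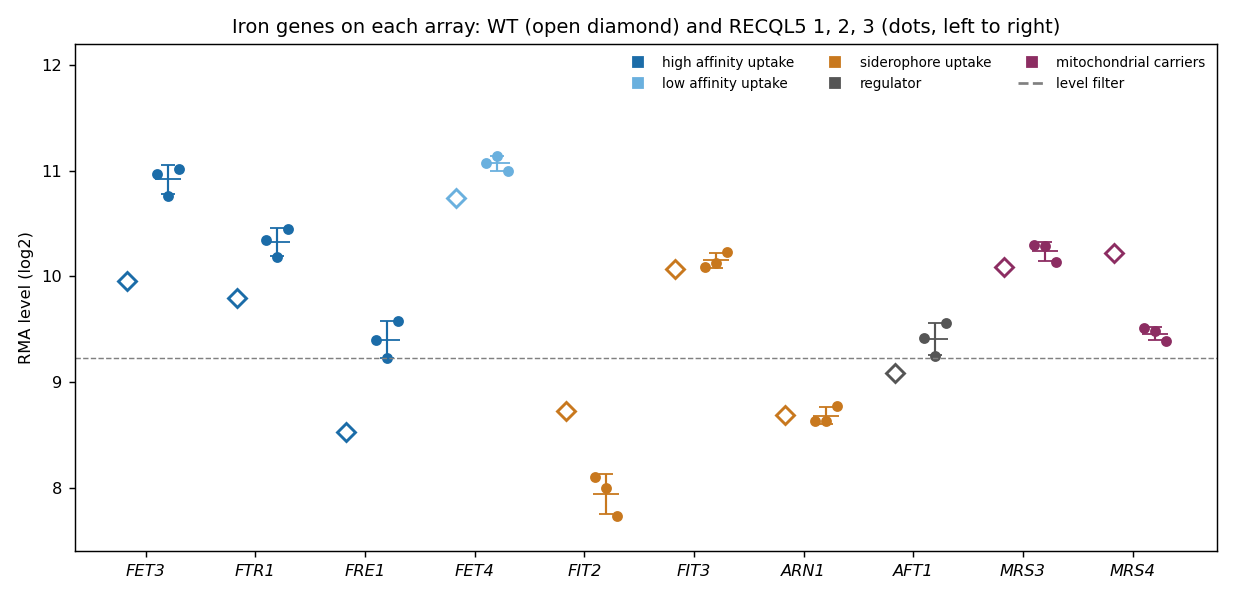
RMA log2 level (vertical axis) of the 10 iron genes in WT (open diamond) and RECQL5 1, 2 and 3 (dots from left to right), with the RECQL5 mean and SD (n = 3) and the level filter of 9.23 as a dashed line. *FET3* and *FRE1* lie far above their WT values and *MRS4* and *FIT2* far below, while *ARN1* overlaps WT; heights of different genes are not comparable because each has its own probes.

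*FET3* (YMR058W) encodes the multicopper oxidase that turns ferrous into ferric iron as it is taken up. It read 9.96 in WT and 10.97, 10.76 and 11.02 in RECQL5 1, 2 and 3. Every RECQL5 array was thus above WT, the nearest by 0.80, while the RECQL5 arrays spanned 0.26 among themselves. The change was 0.96 ± 0.11 (SE, 95% interval 0.68 to 1.24, adjusted p = 0.00202, limma), larger in size than that of 95.7% of tested genes.

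*FTR1* (YER145C) encodes the permease that works with Fet3. It read 9.80 in WT and 10.34, 10.18 and 10.45 in RECQL5. The groups did not overlap, and the nearest RECQL5 array was 0.39 above WT. The change of 0.53 ± 0.11 SE (1.44-fold, adjusted p = 0.0121, limma) passed the p threshold and stayed under 1.5-fold, and without RECQL5 2 it was 0.60 and passed both. The level of *FET3* relative to *FTR1* also differed between groups. *FET3* minus *FTR1* was 0.16 in WT and 0.63, 0.58 and 0.57 in RECQL5, a shift of 0.43 ± 0.03 (SD, n = 3, exact permutation p = 0.25, the smallest possible). Both transcripts read higher than on the WT array. The unequal size of their differences rests on that 1 array, whose spread is unknown, and was not tested further.

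*FRE1* (YLR214W) encodes the main ferric and cupric reductase of the cell surface. It read 8.53 in WT and 9.40, 9.22 and 9.57 in RECQL5. Its mean of 9.18 was just under the filter of 9.23, with the WT array well below it and 2 RECQL5 arrays above. Without the filter the change was 0.87 ± 0.15 SE (1.83-fold, adjusted p = 0.00955, limma). *FRE2*, a second reductase gene, moved by a similar amount from a lower level. It read 6.97 in WT and 7.83, 7.58 and 7.76 in RECQL5, and rose by 0.75 without the filter (adjusted p = 0.00773, limma). In the whole list of 10 high affinity uptake and reduction genes, 1 of 5 tested (*FET3*) rose and 0 fell (median change 0.17). Over all tested genes 9.59% rose and 7.8% fell. Without the filter 3 of the 10 rose, beside 10.3% of all genes. All RECQL5 arrays lay above WT for 6 of the 10 genes and below it for 1, beside 45.5% and 39.7% of all genes.

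*FET4* (YMR319C), the gene of a low affinity transporter for ferrous iron and other metals, read 10.75 in WT and 11.07, 11.14 and 11.00 in RECQL5. All RECQL5 arrays were above WT by at least 0.25, and the change of 0.32 ± 0.08 SE (1.25-fold, adjusted p = 0.0176, limma) was well under 1.5-fold. The other 4 genes of low affinity and divalent metal uptake also had all RECQL5 arrays above WT (45.5% of all genes did), and 0 of 5 were called. The largest difference among them was 0.54 ± 0.07 SE for *ZRT2*, a low affinity zinc transporter gene.

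The siderophore genes went different ways. *FIT2* (YOR382W), a gene of a cell wall mannoprotein, read 8.73 in WT and 8.10, 7.99 and 7.73 in RECQL5, each at least 0.63 below WT. Without the filter the change was -0.79 ± 0.15 SE (adjusted p = 0.0145, limma), and its RECQL5 arrays were the most spread of the 10 genes (SD 0.19, n = 3). *FIT3* (YOR383C), another such mannoprotein gene, read 10.07 in WT and 10.09, 10.13 and 10.23 in RECQL5. Its nearest RECQL5 array was 0.02 from WT, and the change of 0.08 ± 0.08 SE (95% interval -0.12 to 0.28, adjusted p = 0.423, limma) did not pass the test.

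*FIT2* and *FIT3* are adjacent and convergent in the R64 gene order. *FIT2* minus *FIT3* was -1.34 in WT and -1.99, -2.14 and -2.50 in RECQL5, so the 2 neighbours shifted apart by -0.87 ± 0.26 (SD, n = 3, exact permutation p = 0.25, the smallest possible). *ARN1* (YHL040C), a transporter gene for siderophores of the ferrichrome type, read 8.68 in WT and 8.63, 8.63 and 8.77 in RECQL5. It was the only iron gene of the 10 whose groups overlapped, and the change was -0.0030 ± 0.086 SE without the filter (95% interval -0.23 to 0.22, adjusted p = 0.979, limma). The remaining 4 genes of the siderophore list were under the filter and lay above WT on every RECQL5 array, by means of 0.28 to 0.54. They are *FIT1* (0.44), a related mannoprotein gene, and, named to complete the count, the transporter genes *ENB1* (0.54), *SIT1* (0.52) and *ARN2* (0.28). None of the 4 reached 1.5-fold without the filter (adjusted p from 0.00494 to 0.0473, limma). *FIT2* was thus the single gene of 7 in that list with every RECQL5 array below WT.

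**Figure D2:**
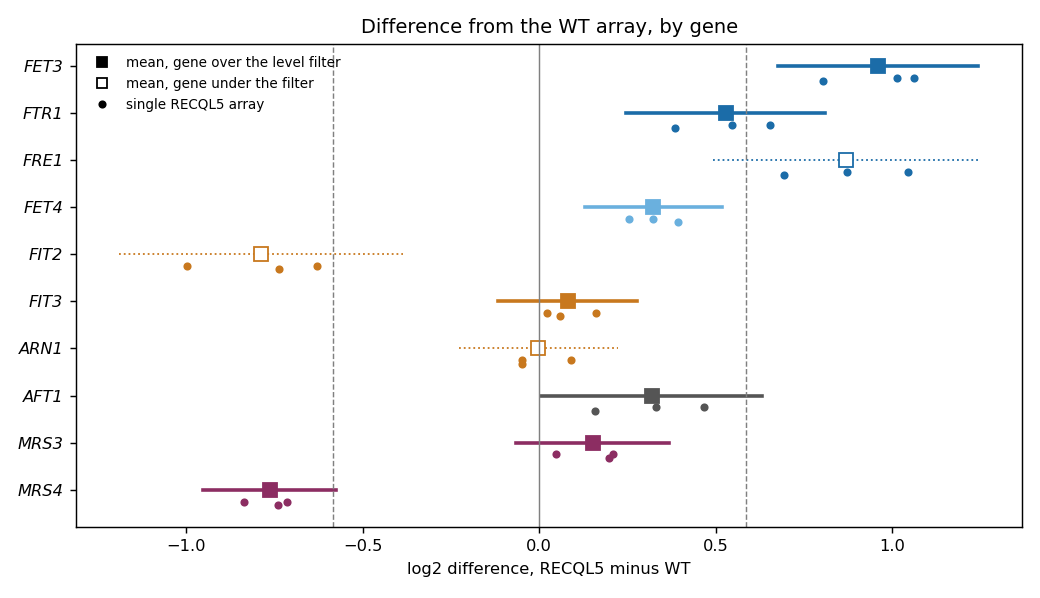
Log2 difference from WT (horizontal axis) for each iron gene, with the mean (square), its 95% interval from limma (line) and the 3 RECQL5 arrays (dots); open squares with dotted lines are genes under the level filter, whose interval comes from the fit without it. Dashed lines mark 1.5-fold; *FET3* (0.96) and *FRE1* (0.87) lie to the right and *MRS4* (-0.76) and *FIT2* (-0.79) to the left.

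*AFT1* (YGL071W), the gene of the iron-responsive activator, read 9.09 in WT and 9.42, 9.24 and 9.55 in RECQL5. All RECQL5 arrays were above WT, the nearest by 0.16. The change was 0.32 ± 0.12 SE (1.25-fold, 95% interval 0.01 to 0.63, adjusted p = 0.0772, limma), under 1.5-fold. The WT value of *AFT1* was under the level filter, and its mean of 9.33 passed only through the RECQL5 arrays. Without the filter the change did not pass the p threshold (95% interval -0.03 to 0.66, adjusted p = 0.104, limma). *AFT2*, the gene of a related activator with overlapping targets, read 9.14 in WT and 8.19, 8.23 and 8.34 in RECQL5. It was under the level filter, and without the filter it fell (-0.89 ± 0.09 SE, adjusted p = 0.00308, limma). The paralogs therefore lay on opposite sides of WT on every RECQL5 array.

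*MRS3* and *MRS4*, carriers with overlapping roles in mitochondrial iron supply, also parted. *MRS4* (YKR052C) read 10.22 in WT and 9.51, 9.48 and 9.39 in RECQL5. The RECQL5 arrays lay within 0.12 of each other and at least 0.71 below WT. The change was -0.76 ± 0.08 SE (95% interval -0.95 to -0.58, adjusted p = 0.00128, limma), larger in size than that of 91.1% of tested genes. *MRS3* (YJL133W) read 10.09 in WT and 10.30, 10.28 and 10.14 in RECQL5, above WT by as little as 0.05. Its change of 0.15 ± 0.09 SE (95% interval -0.07 to 0.37, adjusted p = 0.189, limma) did not pass the test.

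Within each array, *MRS4* minus *MRS3* was 0.14 in WT and -0.79, -0.80 and -0.75 in RECQL5. The shift of -0.92 ± 0.03 (SD, n = 3, exact permutation p = 0.25, the smallest possible) was far larger than the spread among RECQL5 arrays. *RIM2*, a mitochondrial carrier gene for pyrimidine nucleotides, rose by 0.79 ± 0.06 SE (adjusted p = 0.00098, limma). Over the wider family of 32 mitochondrial carrier genes, 25 were tested, of which 1 rose (*RIM2*) and 3 fell, with a median change of -0.05. Those that fell were *MRS4*, the citrate carrier gene *CTP1* (-1.68 ± 0.31 SE) and the oxodicarboxylate carrier gene *ODC1* (-0.62 ± 0.15 SE). *ODC1* lost its call without RECQL5 3 (-0.50), where *OAC1*, the oxaloacetate carrier gene, named to complete the count, passed (0.59). Over all tested genes 9.59% rose and 7.8% fell. Without the filter 3 of the 32 carrier genes rose and 3 fell, beside 10.3% and 8.59% of all genes.

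Among the 3 RECQL5 cultures, *FET3*, *FTR1*, *FRE1* and *AFT1* were each lowest on RECQL5 2 and highest on RECQL5 3, the order found in 17.4% of tested genes. *FIT2*, *MRS3* and *MRS4* were lowest on RECQL5 3 and highest on RECQL5 1, an order found in 21.1%. *FIT3* and *ARN1* were lowest on RECQL5 1 and highest on RECQL5 3 (20.1% of tested genes), and *FET4* was lowest on RECQL5 3 and highest on RECQL5 2 (14.1%). The arrays share RNA handling and normalization, so these orders are a description. The SD over RECQL5 arrays ran from 0.0646 for *MRS4* to 0.189 for *FIT2*, and the median SD of tested genes was 0.0607.

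**Figure D3:**
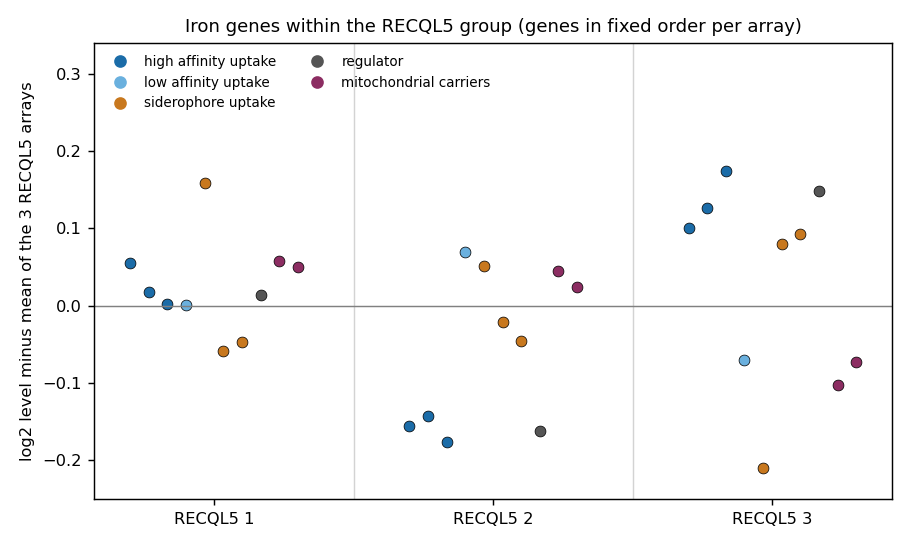
Log2 level minus the mean of the 3 RECQL5 arrays (vertical axis) for the 10 iron genes on RECQL5 1, 2 and 3, coloured by uptake route and in the same gene order within each array. The 3 high affinity genes and *AFT1* are 0.14 to 0.18 below their mean on RECQL5 2 and 0.10 to 0.17 above it on RECQL5 3.

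Genes under Aft1 and Aft2 lay on both sides of WT. Of 28 such genes, 13 lay above WT on every RECQL5 array and 9 below, beside 45.5% and 39.7% of all genes. Among the 16 tested, 1 rose and 3 fell (median change -0.03), beside 9.59% and 7.8% of all tested genes. *FET3* rose, and *MRS4*, *BNA2* (-1.36 ± 0.17 SE, adjusted p = 0.00259, limma), of NAD synthesis from tryptophan, and *VHT1* (-0.73 ± 0.12 SE), the biotin transporter gene, fell. Without the filter 3 of 28 rose and 5 fell, beside 10.3% and 8.59% of all genes. The added genes were *FRE1* and *FRE2* above WT, and *FIT2* and *TIS11* below it. *TIS11*, named to complete the count, encodes an mRNA-binding protein that limits transcripts of iron-using proteins in iron scarcity. It read 7.96 in WT and 6.72, 6.75 and 7.38 in RECQL5 (WT 2.00-fold the RECQL5 level, adjusted p = 0.0397, limma). In the list of iron regulators 0 of 8 tested genes were called, with *ZAP1*, the zinc-responsive activator gene, farthest from WT (-0.52 ± 0.20 SE). *ZAP1* differed from WT by -0.70, -0.64 and -0.21 on RECQL5 1, 2 and 3, and without RECQL5 3 it fell (-0.67). Without the filter 2 of 11 regulator genes fell, *AFT2* and *TIS11*. In the vacuolar store list 0 of 7 were called, with *ZRC1*, a vacuolar zinc transporter gene, farthest (0.35 ± 0.08 SE).

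Lists of genes that use iron were read next. Of 18 mitochondrial iron-sulfur cluster assembly genes, 13 lay below WT on every RECQL5 array and 1 above, beside 39.7% and 45.5% of all genes. Of 17 tested, 0 rose and 2 fell (7.8% of all tested genes fell), with a median change of -0.21 against 0.02 for all tested genes. Those that fell were *IBA57* (-0.81 ± 0.08 SE) and *ISA2* (-0.70 ± 0.07 SE), which act late in the pathway for aconitase-type enzymes. In the cytosolic assembly list 2 of 8 fell, *NBP35* (-0.64 ± 0.08 SE), of the scaffold complex, and *DRE2* (-0.60 ± 0.07 SE), of its electron supply, with a list median of -0.29 and 5 of 8 below WT on every RECQL5 array. *DRE2* slipped under 1.5-fold after quantile normalization (-0.58), without RECQL5 1 and without RECQL5 2.

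In heme synthesis and breakdown 1 of 9 tested genes fell, beside 7.8% of all tested genes. It was *HEM15* (-0.83 ± 0.17 SE), which encodes the ferrochelatase that inserts iron into heme. The list median was -0.09. On every RECQL5 array 5 genes lay below WT and 3 above, beside 40.6% and 45.5% of all tested genes. Among 23 tested genes of iron-containing enzymes 4 fell and 2 rose (median change -0.11), beside 7.8% and 9.59% of all tested genes. Without the filter 4 of 25 fell and 4 rose, beside 8.59% and 10.3% of all genes. The falls were those of the catalase gene *CTT1* (-1.92), the homoaconitase gene *LYS4* (-1.33), the biotin synthase gene *BIO2* (-0.92) and the sulfite reductase gene *MET5* (-0.70). The rises, named to complete the count, were those of *RAD3* (0.69), a helicase gene of repair and transcription, and *ELP3* (0.63), of tRNA modification. *ELP3* slipped under 1.5-fold after cyclic loess (0.58).

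Fet3 needs copper, and *FET4* is known as a target of the hypoxic repressor Rox1, so genes of both systems were read as well. Among 11 tested copper genes 0 rose and 1 fell, *CCS1* (-1.03 ± 0.06 SE), which encodes the copper chaperone of superoxide dismutase, and without the filter 1 of 13 rose and 1 fell. The genes that bring copper to Fet3, *ATX1* and *CCC2*, differed by -0.12 and 0.08 and the copper transporter gene *CTR1* by 0.17, with none past the test. Among 7 tested hypoxic genes 1 fell, *ROX1* itself (median change -0.21). It read 11.63 in WT and 10.79, 10.79 and 10.47 in RECQL5 (-0.94 ± 0.14 SE, adjusted p = 0.00407, limma). Without the filter 2 of 12 hypoxic genes rose and 1 fell, with a median of 0.09. Across all fixed lists, 115 tested genes other than the 10 gave 3 rises and 15 falls, where 9.59% of all tested genes rose and 7.8% fell. Without the filter, 143 such genes gave 10 rises and 17 falls, where 10.3% of all genes rose and 8.59% fell.

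**Figure D4:**
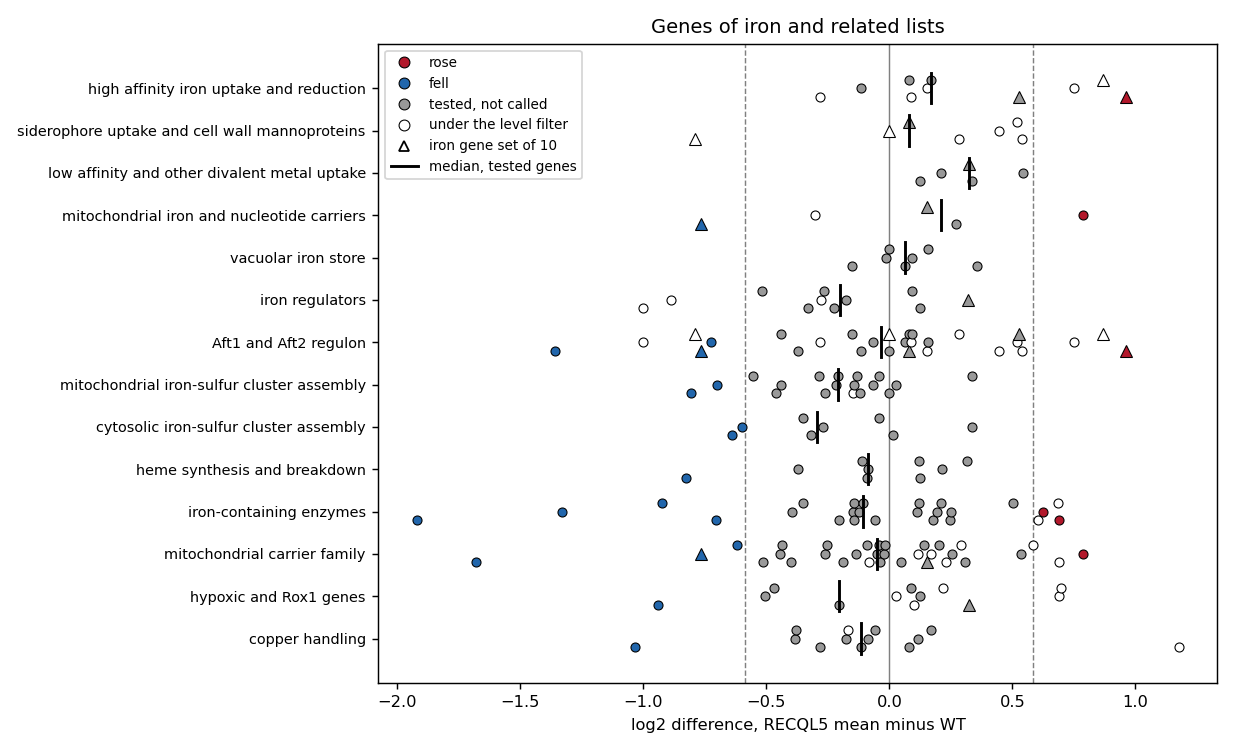
Log2 difference of the RECQL5 mean from WT (horizontal axis) for the genes of 14 iron and related lists (rows; some genes stand in several), with the 10 iron genes as triangles, list medians over tested genes as bars and 1.5-fold as dashed lines. Red marks genes that rose, blue those that fell, grey those tested and not called, and white those under the level filter. In the 2 lists of iron-sulfur assembly 4 genes fell and 0 rose, beside 7.8% and 9.59% of all tested genes.

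Of 9 tested protein-coding neighbours that are not iron genes of the set, 2 rose and 0 fell, beside 9.59% and 7.8% of tested genes. They are *EFM1* (0.86), divergent from *ARN1*, and YJL132W (0.85), downstream of *MRS3* on the same strand, next to iron genes that differed from WT by -0.0030 and 0.15. YJL132W read 8.61 in WT, under the level filter, and 9.69, 9.37 and 9.32 in RECQL5. Its mean passed the filter only through the RECQL5 arrays, so its place among the tested neighbours depends on its higher RECQL5 level. Without the filter it rose as well (adjusted p = 0.0137, limma), and its low WT reading calls for caution. The tested neighbours of *FET3*, *AAC1* (0.05) and *SEN15* (0.08), stayed near WT. Some neighbours were under the level filter. *CRR1*, divergent from *FRE1*, read 5.84 in WT and 6.60, 6.41 and 6.58 in RECQL5, the same direction as *FRE1* (0.69 without the filter, adjusted p = 0.00655, limma). *YSR3*, next to *MRS4*, read 7.46 in WT and 8.82, 8.50 and 8.68 in RECQL5, opposite to *MRS4* (2.30-fold without the filter, adjusted p = 0.00387, limma).

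The tested genes most like *FET3* by Euclidean distance over the 3 differences from WT were *SRL3* (distance 0.02), *SSK22* (0.05) and *SLT2* (0.08), and 4 genes lay within 0.1. Those most like *MRS4* were *ADD66* (0.03), YPR127W (0.05) and *UBC5* (0.05), with 15 genes within 0.1. The likeness rests on 3 RECQL5 arrays that share 1 WT array.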

How the data were processed

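Total RNA from 4 cultures was measured on Affymetrix arrays. The values deposited by the authors are log2 levels, 1 for each probe set on an array, from RMA (background correction, quantile normalization, median polish over probes). RMA and limma appear in the submitters' processing notes without version numbers. Per the study, published arrays served to standardize the WT array. It is not known here if the deposited WT values include that step, and every difference between RECQL5 and WT rests on this open point. Median values over 10928 probe sets were 6.93 for WT and 7.01 to 7.14 for RECQL5. The source labels of RECQL5 2 and 3 end in other gene numbers, and their titles, strains and descriptions give RECQL5.

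Probe sets were named through gene identifiers in the R64 table (5498 with 1 gene, 1 with several, 1746 for genes outside the table). A gene was represented by its probe set of highest mean. limma 3.58.1 in R 4.3.3 (lmFit, eBayes, two-sided, 2 residual degrees of freedom) was fitted over all tested genes, with the level of 600, the 1.5-fold change and the adjusted p of 0.1 from the study. It gave 396 rises and 322 falls, several times as many genes as the study reports, so the calls here are not those of the study. The source of that gap was not tested. The fit was also run on simulated data in which WT varied like the RECQL5 arrays, so that assumption was not tested. The cultures are called biological replicates, and the number of arrays limits the precision. No sequences or coordinates are given. The genes and lists were chosen with earlier results of these data known. Named genes are the 10, up to 4 called genes of each list by size of change (or the largest tested difference where none was called), the paralogs *AFT2*, *FIT1* and *FRE2*, and the nearest 3 genes to each called gene of the 10. Other names complete a count or give a neighbour or partner, and were chosen after their values were seen.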

Additional observations from a re-analysis of the deposited data

How the results depend on the processing

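The rise of *FET3* (0.91 to 1.04) and the fall of *MRS4* (-0.81 to -0.73) passed the test under all 14 alternatives. These changed the level filter, the normalization, the probe set rule, the variance model, the p threshold or left out a RECQL5 array. Only the normalizations and the left-out arrays could alter the size of these 2 differences. The rest acted on the adjusted p or its threshold alone, as each of the 10 genes has 1 probe set. With no level filter *FRE1* (0.87) and *FIT2* (-0.79) passed the test as well, so 2 of the 10 iron genes rose and 2 fell, because genes under the filter were then tested. Leaving out 1 RECQL5 array gave 0.47 to 0.60 for *FTR1*, past 1.5-fold without RECQL5 2 alone, and 1 to 2 iron genes that rose. *FET4*, *FIT3*, *MRS3* and *AFT1* were called under no alternative that tested them, and *AFT1* was not tested where the filter applied to WT or to every array. *FRE1*, *FIT2* and *ARN1* were tested without the filter only. Among genes of the lists, *HEM15* and *ODC1* lost their calls at an adjusted p under 0.01, and *BNA2* and *ODC1* were not tested with the filter on every array. Over all genes 332 to 560 rose and 285 to 468 fell. No paired analysis was possible because WT has a single array and shares 1 replicate number with RECQL5. The WT array could not be left out, so a trait of that culture or its standardization cannot be told apart from RECQL5 expression.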
